A study of Mus musculus with 15 samples.

Results

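The genes described here are 9 members of the proximal signalling machinery of the T cell receptor (TCR), *Syk*, *Zap70*, *Lck*, *Fyn*, *Lat*, *Lcp2*, *Ptpn22*, *Csk* and *Ptprc*. They were chosen by name, with earlier results of these data known, and all 9 were among the 12545 genes of the deposited table. RNA was sequenced from 15 mouse T cell leukemia lines on an FVB/NJ background, each grown from thymic cells of a moribund mouse and represented by 1 library. The 7 *E2a-/-* lines lack the E protein E2A. The 8 DKO lines (*E2a-/-LefF/F LckCre+*) lack E2A as well, and carry alleles of *Lef1* with loxP sites and a Cre recombinase transgene driven by the *Lck* promoter, which acts in T-lineage cells. The study compared the genotypes to learn how leukemias that arose without LEF1 differ from those that arose with it. Values are in CPM, the reads of a gene scaled to the total of its library, and each line is 1 value, so a group value mixes differences between mice, between leukemias and between libraries.

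Signalling from the TCR starts when the SRC family kinases LCK and FYN phosphorylate tyrosine motifs (ITAMs) in the CD3 and zeta chains of the receptor. ZAP70 and SYK are the members of a separate kinase family that bind these phosphorylated motifs through paired SH2 domains, and they phosphorylate the adaptors LAT and SLP-76, the product of *Lcp2*. SYK serves the B cell receptor and Fc receptors, is present in early thymocytes around the pre-TCR stage, and normally declines as thymocytes mature, whereas ZAP70 is the family member of mature T cells. CSK and the phosphatase encoded by *Ptpn22* restrain LCK and FYN, while CD45, the product of *Ptprc*, both activates and limits them by removing phosphates.

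The libraries held 4847970 to 21681586 reads on the listed genes, and 1 read was worth 0.0461 CPM in SKO95, the deepest, and 0.206 CPM in DKO79.9, the shallowest. The targeted gene, *Lef1*, lay at 103 to 210 CPM in the 8 DKO lines and at 668 to 1558 CPM in 6 of the 7 *E2a-/-* lines. These are reads over the whole gene, so the deleted exons are not told apart from the rest. Exons of *Lef1* also overlap the antisense gene *Gm43352* over 1208 bases, and whether reads were counted by strand is not stated. The library labelled SKO132 had 59.0 CPM of *Lef1*, below every DKO line, and also stood apart in *Cd3d* at 47.0 CPM against 290 to 657 CPM elsewhere, and in *Notch1* at 31.3 CPM against 830 to 2266 CPM. It was kept under its label, and differences that it moved by more than 1.5 times or turned, and relations between members that it decided, are given with and without it. The labelled T lineage was checked with 12 T-lineage markers, all of which were listed, and their summed level was 5358 to 7660 CPM in DKO lines and 4387 to 6407 CPM in *E2a-/-* lines. The member *Lat* is 1 of the 12, and the sums mostly reflect high markers, above all *Tcf7* and *Thy1*. Other markers were low, with *Cd5* at 0.142 to 21.2 CPM over all lines. *Cd2* fell to 0.496 CPM and *Ptcra* to 0.165 CPM, both in SKO132. Of 11 B-lineage markers 3 were listed, with sums of at most 7.21 CPM, and of 12 myeloid markers 2, with sums of at most 14.0 CPM. Of 8 markers of natural killer and innate lymphoid cells 5 were listed, and their sums of 108 to 1340 CPM were mostly *Gzma*, a granzyme. No marker from the list of 7 erythroid genes was listed. The B-lineage genes *Pax5*, *Ebf1* and *Cd79a* are not in the analysed table, so they could not be set beside *Syk*.

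*Syk* lies at 13:52678542-52744161 (plus strand) and *Zap70* at 1:36818695-36839663 (plus strand) in the coordinates of the deposited table, which are those of another assembly than GRCm38. The upstream sequences of their annotated starts are shown because LEF1 and E2A bind short DNA motifs, the TCF/LEF core CTTTGA and the E-box CANNTG. E2A is lacking in all lines, whereas *Lef1* was targeted in the DKO lines only. RefSeq start sites on GRCm38.p6 were matched by symbol for all 9 members, with 16 starts in all, and the 250 bases before each start were searched on both strands. *Syk* has 2 starts, at windows chr13:52583187-52583436 and chr13:52596632-52596881, and the first *Zap70* start has the window chr1:36761548-36761797, all on the plus strand. Capitals mark the TCF/LEF core.
Syk, first start: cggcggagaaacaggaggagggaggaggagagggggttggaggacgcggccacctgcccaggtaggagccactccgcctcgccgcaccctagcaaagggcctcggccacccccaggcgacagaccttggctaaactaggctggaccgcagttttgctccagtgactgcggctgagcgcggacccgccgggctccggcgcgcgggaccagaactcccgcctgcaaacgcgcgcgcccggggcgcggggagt
Syk, second start: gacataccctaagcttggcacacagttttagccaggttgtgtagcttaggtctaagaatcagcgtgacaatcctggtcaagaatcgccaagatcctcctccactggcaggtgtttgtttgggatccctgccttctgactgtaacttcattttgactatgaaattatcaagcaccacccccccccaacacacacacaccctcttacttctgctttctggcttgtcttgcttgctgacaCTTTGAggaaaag
Zap70, first start: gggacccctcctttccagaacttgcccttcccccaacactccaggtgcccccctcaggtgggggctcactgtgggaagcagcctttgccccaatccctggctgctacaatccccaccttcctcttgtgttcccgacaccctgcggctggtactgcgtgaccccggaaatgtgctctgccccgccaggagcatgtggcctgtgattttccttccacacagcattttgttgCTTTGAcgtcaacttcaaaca

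The first *Syk* window was rich in G and C (71.6%) with 27 CpG dinucleotides and held no TCF/LEF core. The second was 47.6% G and C with 2 CpG dinucleotides and held 1 core, which begins 13 bases before the start. Of 3 *Zap70* windows only the first held a core, 21 bases before its start. Among the 16 windows of the members, 5 held the core (31.2%), 1 each from *Syk*, *Zap70*, *Fyn*, *Lcp2* and *Ptprc*, against 13.8% of 32851 windows of the same length over all genes, and no test was made of this count. An E-box was found in 12 of the 16 windows (75%), against 66.2% over all genes, and in each of the *Syk* and *Zap70* windows. None of the 5 cores overlapped an E-box. A match to these letters describes the sequence only, and the expression table has 1 value per gene, so it does not show which *Syk* start was used.

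*Syk* was present at high level in some DKO lines, at a level between in DKO170.2, and low or absent in all other lines. It reached 336 CPM in DKO713, 306 CPM in DKOTu3, 181 CPM in DKO548 and 160 CPM in DKO102.4, and 20.2 CPM in DKO170.2. The remaining DKO lines, DKO79.9, DKO192.3 and DKO241, had no *Syk* read, which allows up to 0.618, 0.140 and 0.159 CPM (3 reads). The DKO lines therefore ranged from no read to 6958 reads of the same gene.

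In the *E2a-/-* lines *Syk* was 3.37 CPM in SKO115.2 (65 reads), 1.93 CPM in SKO156.6 (28 reads) and 0.996 CPM in SKO186.5 (21 reads). SKO95 had 2 reads, SKO137.1 and SKO163.5 had 1 read each, and the library labelled SKO132 had none, which allows up to 0.165 CPM. The lowest of the 5 DKO lines with *Syk* (at or above 20 CPM) was DKO170.2, close to that dividing level. It was 6.01-fold above SKO115.2, the highest of the other 10 lines. Of the 4 lines without a read, 3 were DKO lines. The groups thus overlapped at the bottom of the range.

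**Figure D1:**
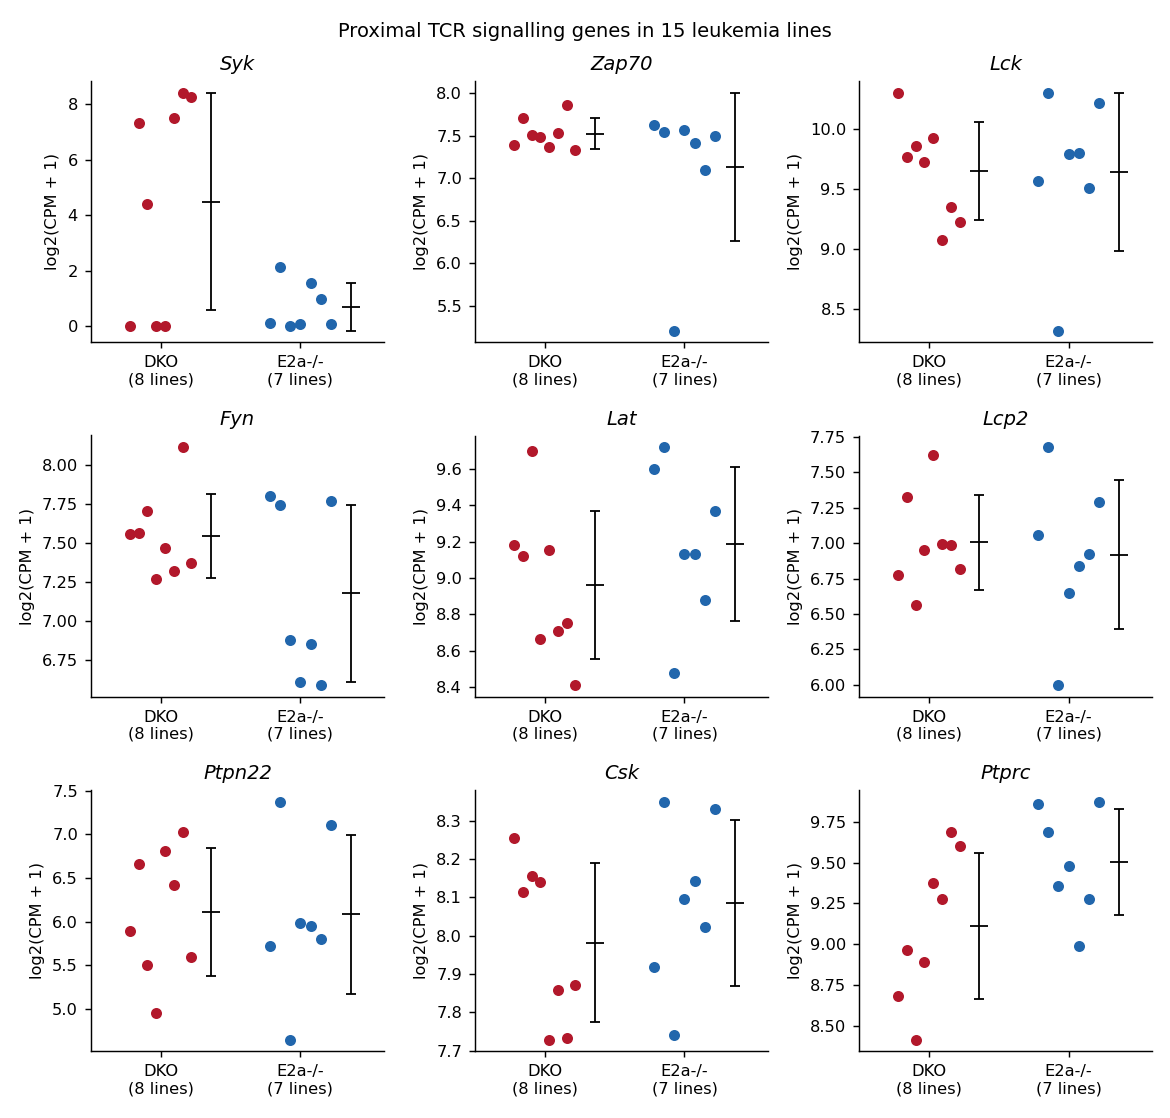
The level of each of the 9 genes, as log2(CPM + 1) on the vertical axis (the axis range differs between panels), in 8 DKO lines (red) and 7 *E2a-/-* lines (blue), 1 point per line, with the mean and SD of each group in black. *Syk* splits the DKO lines between no read and 336 CPM, SKO132 lies apart from the other *E2a-/-* lines for *Zap70*, and every gene overlaps between the groups.

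The mean log2(CPM + 1) of *Syk* was 4.49 ± 3.91 in DKO lines (SD, n = 8) and 0.71 ± 0.86 in *E2a-/-* lines (SD, n = 7). The difference of 3.78 on this scale (SE 1.40) had an adjusted p of 0.368 by limma with Benjamini-Hochberg adjustment over all genes, and a 2-sided exact permutation p of 0.0340 over 6435 splits of the lines. The gene was chosen with earlier results of these data known, so the unadjusted permutation p gives no independent support. With a pseudocount of 0.1 in place of 1 the difference was 4.39 (adjusted p = 0.49 by limma). The call depended on the model. On the whole reads recovered from the table, edgeR's likelihood ratio test gave 7.07 on the log2 scale (adjusted p = 0.00196), and DESeq2 gave 7.09 (adjusted p = 0.00389), whereas edgeR's quasi-likelihood test gave an adjusted p of 0.131. The models on reads compare mean levels, 125 CPM in DKO and 0.929 CPM in *E2a-/-* lines, which the lines with most *Syk* dominate. Limma averages log2 values over the lines, so its difference is an unlike measure. Leaving out any 1 line kept the limma difference between 3.22 and 4.42, with adjusted p between 0.184 and 0.542.

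*Zap70*, by contrast, was present in every line and within a narrow range in 14 of them. In DKO lines it was 232 CPM in DKO713, 207 CPM in DKO102.4, 184 CPM in DKO548, 182 CPM in DKO170.2, 178 CPM in DKO192.3, 167 CPM in DKO79.9, 165 CPM in DKO241 and 160 CPM in DKOTu3. In *E2a-/-* lines it was 196 CPM in SKO95, 189 CPM in SKO137.1, 185.5 CPM in SKO115.2, 180 CPM in SKO163.5, 169 CPM in SKO156.6, 135 CPM in SKO186.5 and 35.9 CPM in the library labelled SKO132. The groups overlapped, and the medians were 179.6 CPM in DKO and 179.9 CPM in *E2a-/-* lines. The difference was 0.39 on the log2 scale (SE 0.29, adjusted p = 0.674 by limma, 2-sided exact permutation p = 0.202). Without SKO132 it was 0.066 (SE 0.102), with an adjusted p of 0.834.

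To relate the mRNA of both kinases within a line, levels were divided by the length of the longest coding transcript. This was 5363 bases for *Syk* and 2245 bases for *Zap70*. Protein levels and kinase activity were not measured in these data. On this scale *Zap70* exceeded *Syk* in all 15 lines. *Syk* made up 44.5% of the sum of both in DKOTu3, 37.8% in DKO713, 29.2% in DKO548, 24.4% in DKO102.4 and 4.45% in DKO170.2. In the *E2a-/-* lines its share was at most 0.754%, in SKO115.2. In the lines without a *Syk* read, 3 reads would give a share of at most 0.155% in DKO79.9, 0.0330% in DKO192.3, 0.0405% in DKO241 and 0.193% in SKO132.

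The shares depend on the length that is used. With merged exons, which count retained introns too, they were 37.9%, 31.7%, 24.0%, 19.8% and 3.44% in the same order of lines, and with the width that the authors list per gene they were 26.2%, 21.2%, 15.5%, 12.5% and 2.03%. The order of the lines was the same each time. Per CPM, with no length, *Syk* was 191% of *Zap70* in DKOTu3, 145% in DKO713, 98.6% in DKO548, 77.3% in DKO102.4 and 11.1% in DKO170.2, because its transcript is longer.

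The lines with *Syk* were not lines that lacked *Zap70*. DKO713 had the highest level of both genes, and DKO102.4 was the second line for *Zap70*, while DKOTu3, with the second highest *Syk*, had the lowest *Zap70* of the DKO lines. Lines without a *Syk* read likewise spanned 165 to 178 CPM of *Zap70* among DKO lines and 35.9 CPM in SKO132. The sum of the mRNA of both kinases per kb was 165.9 CPM in DKO713, 128 CPM in DKOTu3, 122 CPM in DKO102.4, 115.8 CPM in DKO548 and 84.7 CPM in DKO170.2. It was 73.3 to 79.1 CPM in the other DKO lines and 16.0 to 87.5 CPM in the *E2a-/-* lines. Because the 15 values of *Syk* fall into separate clusters, its relation to the other members is given by these values per line and not by a correlation.

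**Figure D2:**
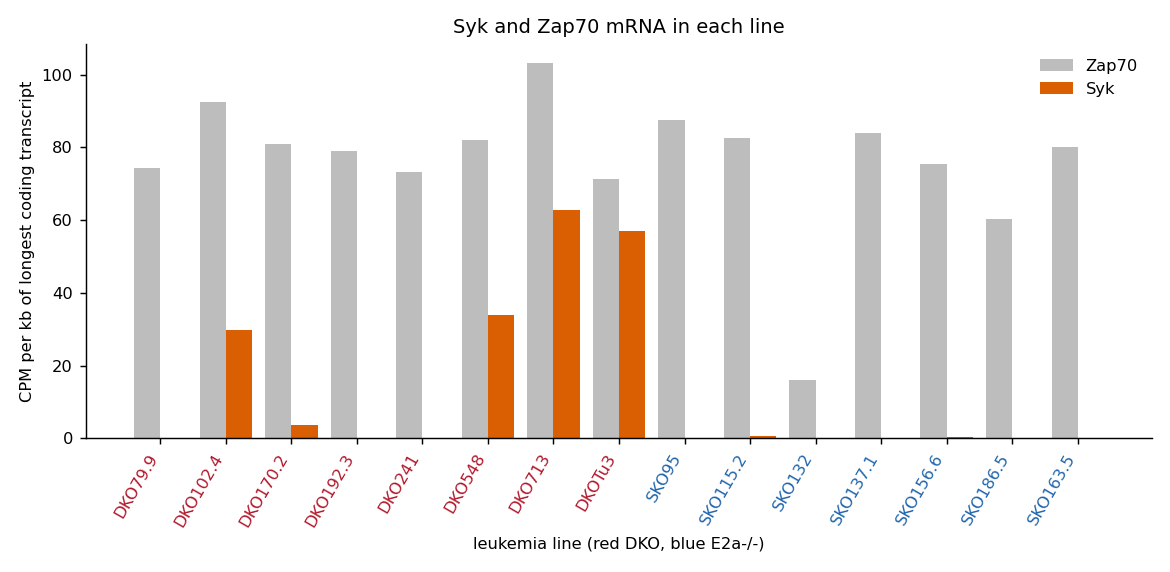
*Zap70* (grey) and *Syk* (orange) in each of the 15 lines, in CPM per kb of the longest coding transcript, with DKO line names in red and *E2a-/-* line names in blue. *Syk* bars stand out in DKO713, DKOTu3, DKO548 and DKO102.4 and are small in DKO170.2, each below the *Zap70* bar of its line. *Zap70* is low only in SKO132.

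The genes whose log2(CPM + 1) followed *Syk* most closely, among 9707 genes averaging 5 CPM or more, were *Adss* (r = 0.91), *Nkd1* (r = 0.91), *Pkdcc* (r = 0.90), *Gadd45g* (r = 0.89) and *Plpp1* (r = 0.87). These are given to describe the pattern, since they were picked for their likeness over the same 15 lines, and the points fall into clusters. *Nkd1*, an inducible antagonist of Wnt signalling, was 198 CPM in DKOTu3, 78.4 CPM in DKO102.4, 72.4 CPM in DKO548, 66.5 CPM in DKO713 and 22.5 CPM in DKO170.2, and at most 14.5 CPM in the other lines. *Pkdcc*, which encodes a secreted tyrosine kinase, was 13.1 to 126 CPM in these 5 lines and at most 8.11 CPM elsewhere. *Adss*, an enzyme of AMP synthesis, moved little, from 146 to 202 CPM over all lines. *Gadd45g* was 1.67 CPM in DKO548 although that line had 181 CPM of *Syk*, and *Plpp1* was 24.9 CPM in SKO115.2 although that line had 3.37 CPM, so neither matched *Syk* in every line.

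The genes most like *Zap70* were *Fundc2* (r = 0.95), *Lcmt2* (r = 0.94), *Adsl* (r = 0.94), *Cd3d* (r = 0.93) and *Notch1* (r = 0.93), over the same 15 lines. All of them shared the drop in SKO132. *Fundc2* had no read there against 61.8 to 128 CPM in the other 14 lines, *Lcmt2* was 3.86 against 15.1 to 23.2 CPM, and *Adsl* was 91.0 against 215.0 to 285 CPM. This likeness therefore rests on that library.

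The kinases that act before ZAP70 and SYK were expressed in all lines. *Lck* (4:129225588-129250885, minus strand) was 539 to 1261 CPM in DKO lines (median 860) and 320 to 1258 CPM in *E2a-/-* lines (median 887), lowest in SKO132 and highest in DKO79.9 and SKO115.2. The groups overlapped over almost the whole range, and the log2 difference was 0.01 (SE 0.26, adjusted p = 0.993 by limma, 2-sided exact permutation p = 0.975). It was -0.21 without SKO132, and it was below 0 in 14 of 29 alternative settings, so its direction is not established. The *LckCre* transgene uses a promoter of this gene, and whether it adds reads to the *Lck* row was not tested.

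*Fyn* (10:39088661-39285187, plus strand), the other SRC family kinase of T cells, was 153 to 276 CPM in DKO lines (median 182) and 95.1 to 222 CPM in *E2a-/-* lines (median 116). The DKO lines lay close together apart from DKO713 at 276 CPM. The *E2a-/-* lines fell on either side of the remaining DKO lines, with SKO95, SKO163.5 and SKO115.2 at 214 to 222 CPM and SKO132, SKO156.6, SKO137.1 and SKO186.5 at 95.1 to 116 CPM, below every DKO line. The log2 difference of 0.37 (SE 0.21) had an adjusted p of 0.573 by limma and a 2-sided exact permutation p of 0.123.

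Both adaptors were abundant in every line. *Lat* (7:133507346-133513057, minus strand), the membrane scaffold that ZAP70 phosphorylates, was 340 to 832 CPM in DKO lines (median 493) and 356 to 842 CPM in *E2a-/-* lines (median 561). The log2 difference was -0.23 (SE 0.20, adjusted p = 0.730 by limma, 2-sided exact permutation p = 0.308), and -0.34 without SKO132 (adjusted p = 0.490 by limma). *Lcp2* (11:33946920-33992295, plus strand), which joins the LAT complex through GADS, was 93.4 to 196 CPM in DKO lines (median 124) and 62.9 to 204 CPM in *E2a-/-* lines (median 120). Its difference was 0.09 (SE 0.21, adjusted p = 0.921 by limma, 2-sided exact permutation p = 0.717), and it was -0.07 without SKO132. An exon of *Lcp2* overlaps the other-strand gene *4930469K13Rik* over 282 bases, and the sources used here do not say whether reads were counted by strand.

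Among the regulators, *Csk* (9:57474454-57493460, minus strand), the kinase that phosphorylates the inhibitory tyrosine of LCK, varied least. It was 211 to 304 CPM in DKO lines (median 255) and 213 to 325 CPM in *E2a-/-* lines (median 273), a 1.54-fold range over all 15 lines, with a difference of -0.10 (SE 0.11, adjusted p = 0.771 by limma, 2-sided exact permutation p = 0.351) and of -0.16 without SKO132 (adjusted p = 0.573 by limma). *Ptpn22* (3:103663718-103716170, plus strand), the phosphatase that works with CSK, varied more, over a 6.85-fold range. It was 29.9 to 130 CPM in DKO lines (median 71.5) and 24.0 to 165 CPM in *E2a-/-* lines (median 60.9), highest in SKO115.2, SKO163.5 and DKO713 and lowest in SKO132 and DKO192.3. The difference was 0.02 (SE 0.39, adjusted p = 0.989 by limma, 2-sided exact permutation p = 0.953), and -0.21 without SKO132.

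*Ptprc* (1:139959438-140071882, minus strand), which encodes CD45, was 340 to 823 CPM in DKO lines (median 559) and 508 to 936 CPM in *E2a-/-* lines (median 712). The lowest lines, DKO170.2, DKO79.9, DKO192.3 and DKO102.4 at 340 to 499 CPM, were all DKO, and the highest, SKO163.5 and SKO95, were both *E2a-/-*, but the groups overlapped. The difference was -0.39 (SE 0.19, adjusted p = 0.519 by limma, 2-sided exact permutation p = 0.0807). The splice forms of CD45 are not told apart by 1 value per gene.

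Between the genotypes, limma called 0 of the 9 members at an adjusted p under 0.01, where 0.0478% of all 12545 genes were called. At an unadjusted p under 0.05 it was 1 of 9, *Syk*, against 10.2% of all genes. The likelihood ratio test and DESeq2 each called 1 of 9, again *Syk*, against 1.24% and 1.41% of all genes. None of the 9 had groups that did not overlap in CPM, against 0.175% of all genes. The median difference of the members was 0.025 on the log2 scale, beside -0.019 for all genes, and without *Syk* the members ranged from -0.39 to 0.39. Without SKO132 the median of the members was -0.16, beside -0.0078 for all genes. A p that misses the threshold does not show that levels were alike, and the standard errors of the members other than *Syk* reached 0.39, for *Ptpn22*.

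Compared per kb of the longest coding transcript, the members kept a similar order of levels from line to line. The medians over 15 lines were 454 CPM per kb for *Lat*, 399 for *Lck*, 129 for *Ptprc*, 99.1 for *Csk*, 80.1 for *Zap70*, 49.5 for *Fyn*, 33.8 for *Lcp2*, 22.2 for *Ptpn22* and 0.186 for *Syk*. *Lat* ranked first in 12 lines and *Lck* in the other 3, and the order of these neighbours turned with merged exons, at 202 for *Lat* and 298 for *Lck*. *Ptprc* also depended on the length, since with merged exons it was 35.7, below *Csk* at 72.9, *Zap70* at 60.1 and *Fyn* at 40.4. *Syk* ranked last in 12 lines, but sixth in DKOTu3, seventh in DKO713 and eighth in DKO548. *Zap70* held rank 5 in 12 lines.

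Lines differed in the whole set. The library labelled SKO132 had the lowest *Zap70*, *Lck*, *Lcp2* and *Ptpn22* of all lines, with 7 of the 8 members other than *Syk* below their median over the lines and a median shift of -0.81 on the log2 scale. SKO115.2 had the highest *Lat*, *Lcp2*, *Ptpn22* and *Csk*, with 8 of 8 above the median and a median shift of 0.43. SKO163.5 had 7 of 8 above, and SKO186.5 had 8 of 8 below. Both extremes were thus labelled *E2a-/-*, and the DKO lines had median shifts between -0.20 and 0.18.

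**Figure D3:**
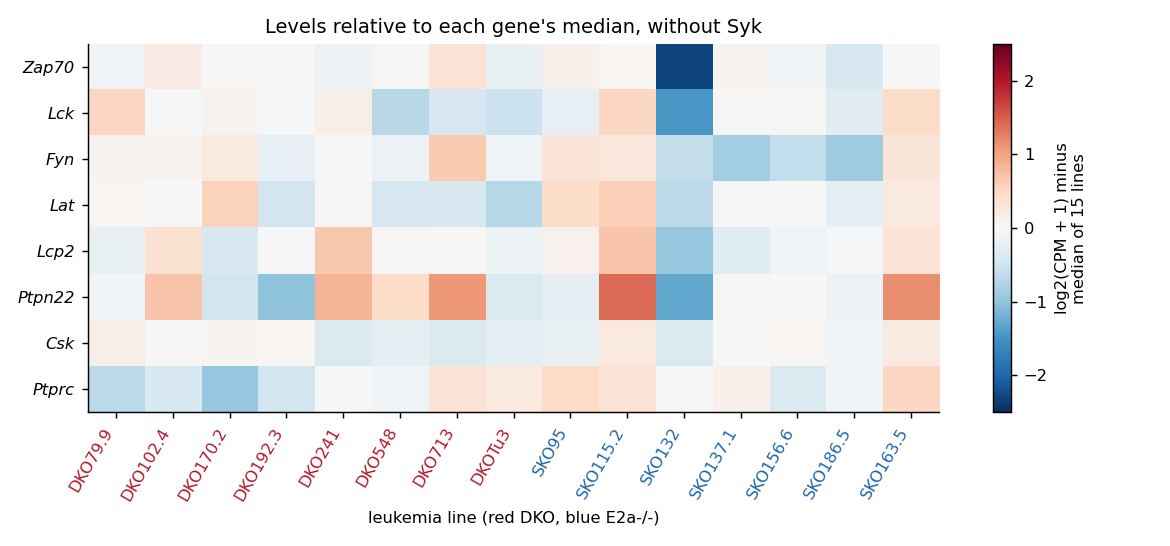
Levels of the 8 members other than *Syk* in each line, as log2(CPM + 1) relative to the median across all 15 lines (red higher, blue lower), with DKO line names in red and *E2a-/-* line names in blue. The SKO132 column is the lowest, with a median shift of -0.81, and the SKO115.2 column the highest, with 0.43.

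The median level of the genes on a member's chromosome was shifted in some lines, and such a median does not tell a whole from a partial shift. In DKO241, genes of chromosome 11 lay at a median of 0.47 above their usual level on the log2 scale, and *Lcp2*, which is on that chromosome, lay 0.67 above its median there. In DKO548, genes of chromosome 1 lay 0.26 above, while *Zap70* lay 0.03 above and *Ptprc* 0.08 below (-0.08) its median. Genes of chromosome 7, which carries *Lat*, had shifts of 0.16 in DKO79.9, 0.11 in DKO170.2 and -0.14 in DKO548. *Lat* itself was shifted by 0.05, 0.57 and -0.42 in these lines. *Syk* is on chromosome 13, whose median shift was between -0.11 and 0.04 in all 15 lines. The part of these shifts in the values of the members was not tested.

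Whether *Zap70* rose and fell with the rest of the set was examined over the 15 lines, with 7 relations and 2-sided permutation tests. Only *Ptpn22* passed at an adjusted p under 0.05, with Pearson's r = 0.58 (p = 0.00659, adjusted p = 0.0461) and Spearman's rho = 0.49 (p = 0.0683, adjusted p = 0.239). For *Lck* r was 0.67 (p = 0.0390, adjusted p = 0.0911) and rho 0.096 (p = 0.734), and for *Lcp2* r was 0.64 (p = 0.0227, adjusted p = 0.0793) and rho 0.40 (p = 0.136). These relations rested on SKO132, and without it r was 0.38 for *Ptpn22*, -0.064 for *Lck* and 0.12 for *Lcp2*.

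Without SKO132 and SKO186.5, the 2 lines farthest from the median of *Zap70*, r was 0.36 for *Ptpn22*, -0.24 for *Lck* and 0.072 for *Lcp2*, and none of the 7 relations passed. Within the 8 DKO lines, r was 0.53, -0.26 and 0.073 for these genes, and none passed. Within the 7 *E2a-/-* lines 1 passed, *Lat* with r = 0.82 (exact permutation p = 0.00456, adjusted p = 0.0319), and without SKO132 it was 0.76 (exact permutation p = 0.0542, adjusted p = 0.379). For *Fyn* r was 0.46 (p = 0.0859, adjusted p = 0.150) and rho 0.58 (p = 0.0245, adjusted p = 0.171) over 15 lines. It was higher without SKO132 (r = 0.62, permutation p = 0.0178, adjusted p = 0.125) and within the 8 DKO lines (r = 0.73, exact permutation p = 0.0430, adjusted p = 0.301), and did not pass after adjustment. Neither *Csk* (r = 0.33) nor *Ptprc* (r = 0.019) passed.

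The 21 other pairs among the 8 members, examined after seeing the data, gave 3 relations that passed by both r and rho. *Lcp2* rose with *Ptpn22* (r = 0.80, adjusted p = 0.00535, rho = 0.73, adjusted p = 0.0281, permutation tests). *Lck* rose with *Csk* (r = 0.76, adjusted p = 0.00535, rho = 0.71, adjusted p = 0.0281, permutation tests) and with *Lat* (r = 0.72, adjusted p = 0.0143, rho = 0.80, adjusted p = 0.0164, permutation tests). Without the 2 lines farthest from the median of the first gene of each pair, r was 0.63, 0.74 and 0.64, and none passed after adjustment (adjusted p = 0.140, 0.0878 and 0.140). Without SKO132 alone, the first 2 still passed, each with an adjusted p of 0.0301 by permutation, and *Lck* with *Lat* had 0.0558.

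*Ptpn22* and *Csk*, whose products act together, showed no relation over all lines (r = 0.21, p = 0.461, rho = 0.14, p = 0.613, permutation tests). Within the 7 *E2a-/-* lines *Ptpn22*, *Csk* and *Lck* followed each other, with r = 0.97 for *Ptpn22* with *Csk*, 0.94 for *Lck* with *Csk* and 0.93 for *Lck* with *Ptpn22*, each with an adjusted exact permutation p of 0.00694 over 21 pairs. Leaving out SKO132 left r at 0.94, 0.96 and 0.97 over 6 lines, with an adjusted exact permutation p of 0.0486 each. A further 3 pairs passed in these 7 lines, *Lck* with *Lcp2* (r = 0.90), *Lat* with *Lcp2* (r = 0.89) and *Lcp2* with *Ptpn22* (r = 0.92), so that 6 of 21 passed, but none of these 3 did without SKO132 (adjusted exact permutation p = 0.230, 0.226 and 0.169). SKO156.6 and SKO186.5 had the most alike profiles of 105 pairs of lines (Spearman's rho = 0.987 across genes, which are not independent replicates), and nothing in the labels ties them to each other. SKO115.2 and SKO163.5 came next (rho = 0.969), and they had the highest *Ptpn22*, *Csk* and *Lck* of the 7 lines. The permutation tests treat every line as independent. Within the 8 DKO lines r was -0.62 for *Ptpn22* with *Csk*, 0.62 for *Lck* with *Csk* and -0.16 for *Lck* with *Ptpn22*, and 0 of 21 pairs passed. The lowest there was *Csk* with *Ptprc* (r = -0.89, exact permutation p = 0.00761, adjusted p = 0.160). The difference between the genotypes in these relations was not tested.

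**Figure D4:**
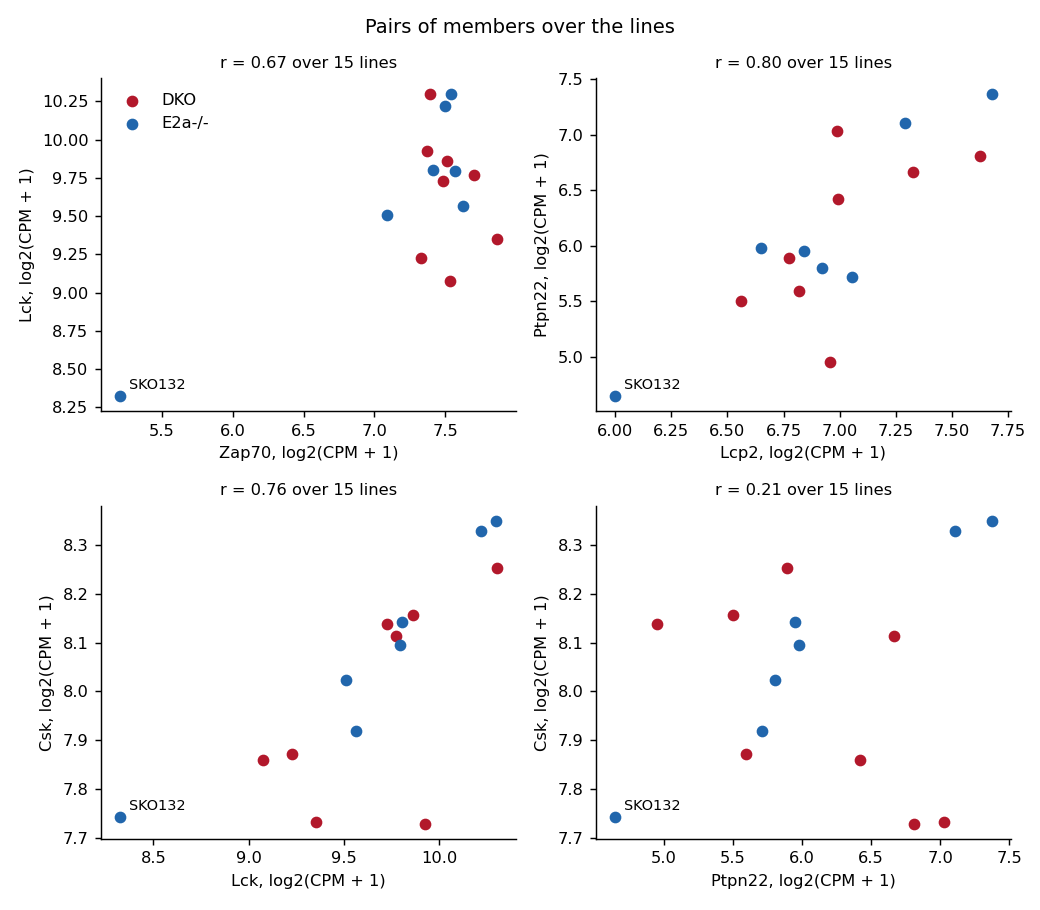
Pairs of members over 15 lines, each axis a gene's log2(CPM + 1), with DKO lines in red, *E2a-/-* lines in blue and SKO132 named. In the panel of *Zap70* and *Lck* SKO132 alone lies apart (r = 0.67 over all 15 lines), and in the panel of *Ptpn22* and *Csk* the blue points rise together while the red ones do not (r = 0.97 and -0.62).

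The wider pathway was read from 8 lists with 114 genes, of which 99 were listed. Limma called 0 of the 99 at an adjusted p under 0.01, and 11 (11.1%) had an unadjusted p under 0.05, 5 higher and 6 lower in DKO lines, against 10.2% of all genes. The lowest adjusted p was 0.179, and the median difference was -0.07 beside -0.019 for all genes. Without SKO132 the median was -0.16 over the 99 genes, and it turned from 0.0058 to -0.21 for the phosphatases and brakes and from 0.23 to -0.28 for the coreceptors and costimulators. It also moved from 0.37 to 0.066 for the SRC and SYK family and from -0.11 to -0.19 for the adaptors and scaffolds. The likelihood ratio test and DESeq2 each called 3, which were *Syk*, *Irf4* and *Cd2*. The quasi-likelihood test called none of these genes (adjusted p = 0.131, 0.199 and 0.125). Without SKO132, *Irf4* missed the threshold by DESeq2 (adjusted p = 0.0193) and passed by the likelihood ratio test (adjusted p = 0.0055). Names below are the genes with an unadjusted p under 0.05 and the largest differences of each list, and none passed by limma.

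Of the SRC and SYK family 7 of 10 kinases were listed, and apart from the members these were *Blk*, *Fgr* and *Yes1*, none with an unadjusted p under 0.05. None of 3 listed TEC family kinases and none of 26 listed adaptors and scaffolds reached that level either, in a list that also holds *Lat* and *Lcp2*. Among 21 listed phosphatases and brakes 1 did, *Ptpn6*, which encodes SHP-1 (0.40, SE 0.14, adjusted p = 0.339 by limma). It was 109 to 199 CPM in DKO lines (median 141) and 76.8 to 147 CPM in *E2a-/-* lines (median 116). The ITAM chains of the receptor, 4 listed of 8, had a median difference of 0.43, which was 0.24 without SKO132. Of these *Cd3e* was 280 to 618 CPM in DKO lines and 184 to 461 CPM in *E2a-/-* lines (0.46, SE 0.20, adjusted p = 0.463 by limma).

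Among 22 downstream effectors, 5 were lower and 1 higher in DKO lines at an unadjusted p under 0.05 by limma, a level that 10.2% of all genes reached. Whether this list departs from all genes was not tested. *Sos2*, an exchange factor for RAS, was 17.2 to 40.1 CPM in DKO lines (median 26.3) and 33.2 to 54.2 CPM in *E2a-/-* lines (median 43.5), with a difference of -0.69 (SE 0.19, adjusted p = 0.179 by limma). *Nfatc2*, a calcineurin-dependent transcription factor, was 0 to 15.7 CPM in DKO lines (median 5.16) and 5.13 to 22.9 CPM in *E2a-/-* lines (median 9.15), with a difference of -1.28 (SE 0.52, adjusted p = 0.413 by limma). *Vav3*, a signalling protein of the VAV family, was 0.265 to 31.0 CPM in DKO lines (median 14.3) and 0 to 26.3 CPM in *E2a-/-* lines (median 1.19). The difference was 1.86 (SE 0.84, adjusted p = 0.467 by limma, and 2.32 without SKO132). It was 1.03 by the likelihood ratio test, which did not call the gene.

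Of 8 coreceptors and costimulators, *Cd2*, an adhesion receptor of T cells, was 3.68 to 13.5 CPM in DKO lines and 0.496 to 203 CPM in *E2a-/-* lines (-1.96, SE 0.79, adjusted p = 0.413 by limma). Its lowest *E2a-/-* value was that of SKO132, without which the difference was -2.65 (adjusted p = 0.0524 by limma). It was lower by the likelihood ratio test (adjusted p = 0.000358). Of 8 listed genes induced by TCR signals, *Irf4*, a transcription factor that rises with signal strength, was 7.10 to 416 CPM in DKO lines (median 63.2) and 1.11 to 25.3 CPM in *E2a-/-* lines (median 16.3). Its difference was 2.14 (SE 0.90, adjusted p = 0.432 by limma), and it was higher by the likelihood ratio test (adjusted p = 0.00239). Among T-lineage markers outside the 8 lists, *Tcf7*, which encodes TCF1, ranged from 2217 to 3624 CPM in the DKO lines and from 799.8 to 2282 CPM in the others (0.66, SE 0.20, adjusted p = 0.241 by limma). Among innate lymphoid markers, *Zbtb16* was 0 to 15.5 CPM in DKO lines (median 0.077) and 0 to 70.7 CPM in *E2a-/-* lines (median 20.6), with a difference of -2.76 (SE 0.88, adjusted p = 0.268 by limma).

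**Figure D5:**
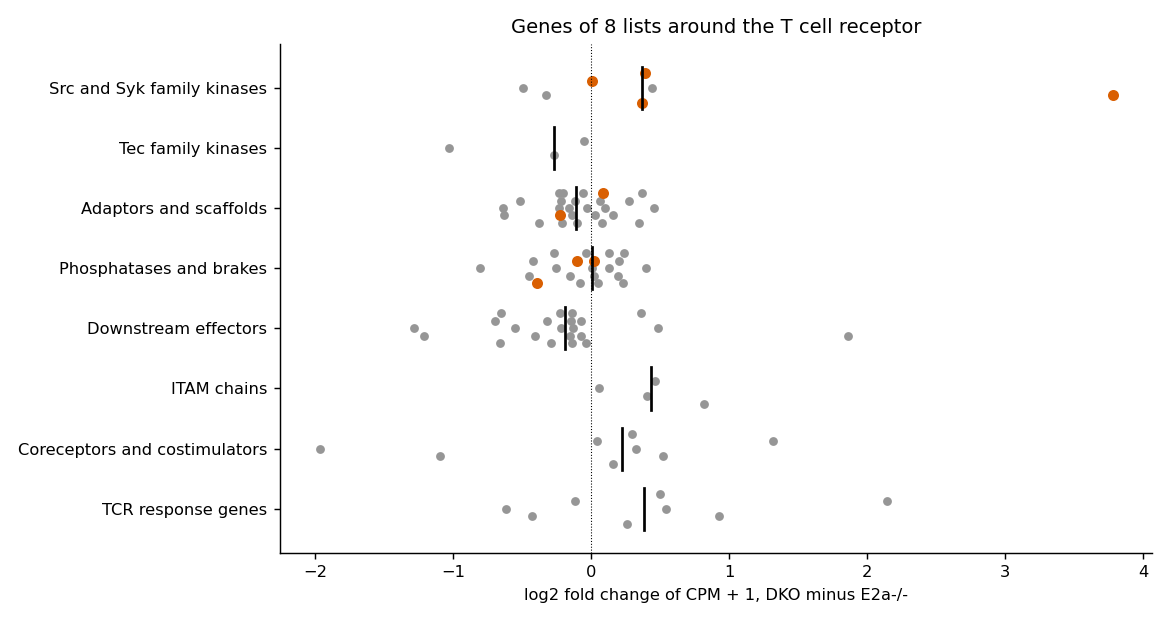
Difference of every listed gene in 8 lists around the TCR, as the log2 fold change of CPM + 1 (DKO minus *E2a-/-*) on the horizontal axis, 1 point per gene, with the 9 members in orange and the median of each list as a black bar. *Syk* at 3.78 lies far to the right of the other kinases, and the medians lie between -0.27 and 0.43 (0.24 without SKO132 for the ITAM chains, the highest of them).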

How the data were processed

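Gene expression was measured by RNA-sequencing in 15 lines, 8 DKO and 7 *E2a-/-*, and groups were taken from the labels. The members and gene lists were chosen with earlier results of these data known. The authors trimmed reads with Trimmomatic (version 0.33), aligned them with TopHat2 (version 2.1.0), counted them with HTSeq (version 0.6.1) and deposited values in CPM, scaled with edgeR to the reads assigned to genes without a further factor. Depth was 4847970 to 21681586 reads, so 3 reads are worth 0.138 to 0.618 CPM, and such limits cover counting error only. Nothing says which steps were repeated per line, so p-values measure the spread between lines as sequenced.

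Dividing the values of a line by its lowest nonzero one gave whole reads for 100% of values within 0.01 reads. Limma (version 3.58.1, R version 4.3.3) with a trend was fitted to log2(CPM + 1) of 12545 genes, 2-sided, with Benjamini-Hochberg adjustment and a threshold of 0.01. Exact permutation over 6435 splits (smallest p 0.000155) was run for single members, and correlations used 100000 permutations over 15 lines and exact ones within a genotype, run in Python (version 3.11.15). Alternatives were pseudocounts of 0.1 and 2, a mean of at least 1 CPM, no trend, array weights, median-of-ratios and TMM scaling, edgeR (version 4.0.16) and DESeq2 (version 1.42.0) on recovered reads, an adjusted p under 0.05, each line left out, and SKO156.6 and SKO186.5 averaged. The fits on reads without SKO132, the list medians without it, the 21 other pairs and the correlations in *E2a-/-* lines without SKO132 were added after seeing the data. Tests were run on simulated reads with the same variability setting for every gene, or on normally distributed values. These held no gene split between lines like *Syk*, so the runs do not cover that case.

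Named genes are the members, *Lef1*, list genes called or, up to 3 per list, with an unadjusted p under 0.05 and the largest difference, and the 5 genes most like *Syk* and *Zap70*. The plan named the table's width for levels per length, but that width is the sum of all transcripts of a gene (median ratio 1.00), so the longest coding transcript of GENCODE vM21 was used and the width kept as an alternative. Table positions are those of another assembly than GRCm38, since 190 of 12172 genes start within 1 bp.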

Additional observations from a re-analysis of the deposited data

Results flagged for a closer look

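Each gene named was examined in each genotype for a single line far from the rest, in 58 groups of 7 or 8 lines, and 13 values were flagged. The rule's rate of about 1 in 20 assumes normally distributed values, which CPM need not follow. It is no yardstick here, since the groups include genes picked for their likeness to *Syk* or *Zap70* over these same lines. In *E2a-/-* lines *Zap70* was 35.9 CPM in the library labelled SKO132, below 135 to 196 CPM in the others. *Tcf7* was 799.8 CPM in SKO95 against 1972 to 2282 CPM, and *Zbtb16* was 70.7 CPM in SKO186.5 against 0 to 30.4 CPM. The genes most like *Zap70* gave 3 such values in SKO132, *Fundc2* at 0 CPM against 61.8 to 95.04 CPM, *Lcmt2* at 3.86 CPM against 15.1 to 20.2 CPM and *Adsl* at 91.0 CPM against 215.0 to 268 CPM. These genes were picked for a likeness that rests on SKO132, so their flags follow from that choice. Among the genes most like *Syk*, *Pkdcc* was 8.11 CPM in SKO95 against 0 to 1.37 CPM. In SKO115.2 *Gadd45g* was 5.55 CPM against 0 to 0.699 CPM and *Plpp1* was 24.9 CPM against 4.65 to 8.23 CPM. In DKO lines *Fyn* was 276 CPM in DKO713, above 153 to 208 CPM in the others. *Nfatc2* was 15.7 CPM in DKO79.9 against 0 to 7.17 CPM, *Cd2* was 13.5 CPM in DKO241 against 3.68 to 6.51 CPM, and *Nkd1* was 198 CPM in DKOTu3 against 0.234 to 78.4 CPM.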

How the results depend on the processing

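Of 29 alternatives, the differences of *Syk*, *Zap70*, *Fyn*, *Lat*, *Csk* and *Ptprc* kept their direction in 29. *Syk* passed in 4, with 7.07 by the likelihood ratio test, 7.09 by DESeq2, and 6.85 and 6.87 by these tests without SKO132, so that 1 member was called in each. No other member passed. *Lck* reversed to -0.16 with array weights, -0.031 by quasi-likelihood, -0.048 by the likelihood ratio test, -0.042 by DESeq2, and -0.19 and -0.19 by the latter tests without SKO132. *Ptpn22* reversed to -0.070, -0.043, -0.067, -0.056, -0.22 and -0.22 in the same order, and to -0.0097 with SKO156.6 and SKO186.5 averaged. *Lcp2* reversed to -0.073 and -0.068 by the likelihood ratio test and DESeq2 without SKO132. The cause was not tested.

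With 1 line left out, differences lay between 3.22 and 4.42 for *Syk*, 0.066 and 0.47 for *Zap70*, -0.21 and 0.12 for *Lck*, 0.27 and 0.47 for *Fyn*, -0.34 and -0.14 for *Lat*, -0.068 and 0.21 for *Lcp2*, -0.21 and 0.24 for *Ptpn22*, -0.16 and -0.060 for *Csk*, and -0.48 and -0.29 for *Ptprc*, and 0 members were called. *Lck* reversed in 8 of these fits, *Ptpn22* in 7 and *Lcp2* in 2.

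Genes called numbered 6 by limma, and 1 by the quasi-likelihood test, 29 with array weights, 19 at an adjusted p under 0.05, 155 by the likelihood ratio test, 177 by DESeq2, and 302 and 315 by the latter tests without SKO132. With 1 line left out they numbered 3 to 17, the most without SKO132. *Zap70* passed with 1 of 7 members, and with 0 by ranks, within DKO lines and without the 2 farthest lines. Its r reversed for *Lck*, to -0.26 within DKO lines and -0.24 without 2 lines, and for *Csk*, to -0.18 and -0.19. No paired analysis was possible because the groups share no line numbers. *Syk* reads of DKO79.9 are limited by its depth, at up to 0.618 CPM.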
